A study of Homo sapiens with 3 samples.

Results

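To describe where the PRCC-TFE3 fusion protein gave its widest chromatin immunoprecipitation sequencing (ChIP-seq) peaks, the broad peaks shared by both ChIP replicates were examined. They were chosen by their measured width: peaks of the deposited narrowPeak lists on chromosomes 1 to 22 and X that were 1000 bp or wider in replicate 1 and overlapped, by at least 1 bp, a replicate 2 peak of 1000 bp or more. Of 109143 replicate 1 peaks, 958 reached this width (0.878%), and of 81258 replicate 2 peaks, 479 did (0.589%). The rule left 285 broad peaks, counted as replicate 1 peaks, which were matched by 286 replicate 2 peaks because a single one, chr14:69251671-69254210, lay over 2 of them.

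The cells were HK-2, an established human renal proximal tubule line, carrying HA-tagged PRCC-TFE3 under the control of doxycycline. There was a single group of 2 ChIP libraries, replicate 1 and replicate 2, and 1 input DNA library. All 3 came from cells given doxycycline at 0.2 µg/mL for 24 h, so the input came from induced cells too, and uninduced cells were not analysed here. Micrococcal nuclease was used to cut the chromatin, and an anti-HA matrix was used to precipitate it. The library totals, recovered from the deposited tag counts, were 12235754 tags in replicate 1 and 7418533 tags in replicate 2, a ratio of 0.606, and both were set against the same input library. Whether the replicates came from separate cultures is not given in the labels, so spread between them may be technical.

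PRCC-TFE3 joins the amino-terminal part of PRCC to TFE3, a basic helix-loop-helix leucine zipper factor of the MiT/TFE family that binds short E-box-type motifs, and it occurs in a subtype of renal cell carcinoma. A factor bound at a single short motif usually gives a narrow peak around it. A wider peak means that the caller reported a longer stretch as a single peak. This can happen where several bound sites lie close together or where the signal is strong enough for its flanks to pass the threshold. Which of these applied was not tested. Because width chose the members and tags determine width, all values are given as descriptions without tests. For comparison, narrower shared peaks were taken: 69968 peaks of replicate 1 under 1000 bp that overlapped a replicate 2 peak and no wide one, and 70309 such peaks of replicate 2. Positions are in hg19, 1-based, as replicate 1 gave them. Genes and DNA sequence at these positions were not analysed here.

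The width of the broad peaks lay close to the limit. The median was 1180 bp in replicate 1, with a range from 1000 to 6071 bp, and 1138.5 bp in replicate 2, with a range from 1000 to 6083 bp. The narrower shared peaks had medians of 331 and 296 bp. When each member was held to the smaller of its widths, the median was 1106 bp, 70 members (24.6%) reached 1200 bp, 9 reached 1500 bp and 4 reached 2000 bp. Most members therefore exceeded the limit by little in at least one library. Together they spanned 364.6 kb in replicate 1 and 346.9 kb in replicate 2, or 1.0% and 1.3% of the length of all peaks.

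Only some wide peaks were wide in both libraries. The 285 members made up 29.7% of the wide peaks of replicate 1 (95% Wilson interval, 26.9% to 32.7%), and their partners made up 59.7% of those of replicate 2 (55.3% to 64.0%). The remaining wide peaks, 673 in replicate 1 and 193 in replicate 2, mostly had a peak in the other library. All but 2 and 1 of them, respectively, overlapped narrower peaks there, and 385 and 110 overlapped at least 2 peaks. Over all remaining wide peaks with any partner, the widest partner had a median width of 652 bp for replicate 1 peaks and 779 bp for replicate 2 peaks. The deeper library had more wide peaks, and the part of depth in this was not tested.

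**Figure D1:**
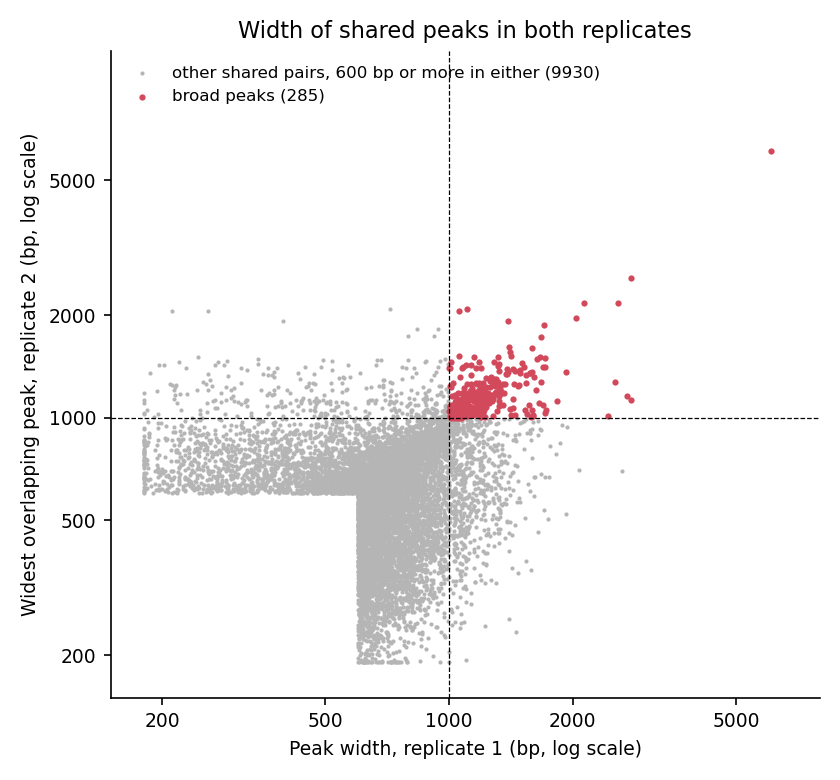
Width in base pairs of overlapping peaks in replicate 1 (horizontal axis) and of the widest overlapping peak in replicate 2 (vertical axis), both on log scales, for pairs of at least 600 bp in either library. Red points are the 285 broad peaks, dashed lines mark 1000 bp, and most red points lie near the corner of the lines while 1 lies at 6071 and 6083 bp.

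The values at the limit illustrate how fine this border was. The member chr12:105352066-105353095 measured 1030 bp in replicate 1 and 1000 bp in replicate 2, with 46 and 31 tags. The member chr17:25659477-25660489 measured 1013 and 1000 bp, with 57 and 37 tags. Just outside, the pair at chr19:2096028-2097025 measured 998 and 1162 bp, with 33 and 36 tags, and the pair at chr4:177191742-177192814 measured 1073 and 997 bp, with 63 and 39 tags. The tags of the pairs outside and of the members inside thus overlapped.

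Across the members, 180 were wider in replicate 1 and 104 in replicate 2, with a median difference of 33 bp. The stretch covered in both libraries had a median of 89.6% of the stretch covered in either, and ranged from 24.5% to 99.8%. The order of widths was only loosely shared between libraries, with a Spearman's rho of 0.433 over the 285 members, compared with 0.655 over the narrower peaks. The restricted range of width among the members enters the first value. In contrast, the order of fold enrichment was closely shared, with a rho of 0.862 for the members and 0.762 for the narrower peaks. All 4 values are descriptions over regions of the same libraries, which share an input.

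The broad peaks were also strong at their summits. The median fold enrichment, as the authors' peak caller gave it against its local background, was 23.2 in replicate 1, ranging from 1.85 to 74.6, and 19.5 in replicate 2, ranging from 3.02 to 105.4. The narrower shared peaks had medians of 9.64 and 7.82, so the broad peaks were 2.41 and 2.49 times as high. When the shared peaks of replicate 1 were ranked by fold and divided into 10 equal groups, 172 of the 285 members fell into the highest. Strength was not particular to wide peaks, however, as 4000 narrower peaks (5.72%) exceeded the median fold of the members. Within the members, width and fold were weakly related, with a rho of 0.150 in replicate 1 and 0.130 in replicate 2.

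Over all peaks of a library, fold enrichment increased step by step with width. In replicate 1 the median was 5.35 for peaks under 250 bp, 14.98 for those from 500 to under 700 bp, 20.3 for those from 1000 to under 1500 bp and 23.6 for the 78 of 1500 bp or more. In replicate 2 the corresponding values were 5.49, 14.1, 18.6 and 24.8, the last from 20 peaks.

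**Figure D2:**
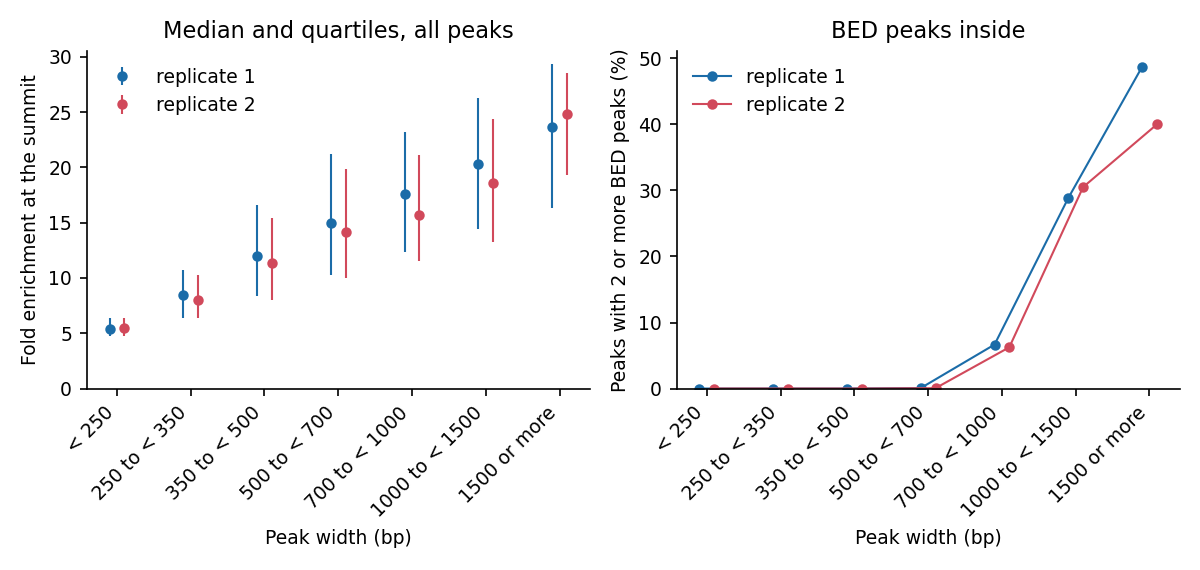
Left, the median fold enrichment at the summit (points) with its lower and upper quartiles (bars) by peak width in bp, for all peaks of each replicate. Right, the percentage of peaks with at least 2 BED peaks inside, which stayed under 7% below 1000 bp and reached 28.9% and 30.5% from 1000 to under 1500 bp.

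The internal structure of the broad peaks was read from the second deposited list of each sample, the BED list, in which every peak had a fixed width of 208 bp in replicate 1 and 212 bp in replicate 2. Because BED peaks have a minimum spacing, with the closest starts 343 and 236 bp apart, a narrow peak has little room for more than one. In replicate 1, 181 members contained 1 BED peak, 82 contained 2, 4 contained 3 and 18 contained none. In replicate 2 the numbers were 183, 82, 2 and 19. At least 2 BED peaks were thus present in 30.2% of the members in replicate 1 (25.1% to 35.7%) and 29.4% in replicate 2 (24.4% to 34.9%), compared with 0.350% and 0.188% of the narrower peaks. Most broad peaks, then, contained a single BED peak.

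The number of BED peaks was the same in both replicates for 224 of the 285 members, of which 153 had 1 in each. A total of 59 members had at least 2 in both libraries. Members with 2 BED peaks in replicate 1 had a median width of 1258 bp, compared with 1164 bp for those with 1, and a lower median fold, at 21.9 compared with 24.1. In replicate 2 the widths were 1183.5 and 1116 bp, and the folds were 19.2 and 19.9. Neighbouring BED peaks inside a member lay a median of 627 bp apart in replicate 1 (425 to 1226 bp) and 621 bp apart in replicate 2 (339 to 976 bp). Per length the broad peaks held fewer of them, with 0.979 and 1.02 BED peaks per kb, compared with 2.33 and 2.37 in the narrower peaks. Nearly all narrower peaks held at most 1 BED peak and width chose the members, so this order is largely set by construction. The fixed windows covered a median of only 19.3% and 20.1% of the width of a broad peak, whereas they covered 59.9% and 66.5% of a narrower one. The tags described next are therefore those of the windows and leave out most of each broad peak.

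The members with the most BED peaks, 5 over both libraries, were 3 in number. At chr14:24582895-24584564 there were 3 BED peaks with 158 tags in replicate 1 and 2 with 59 tags in replicate 2. At chr16:57333309-57334817 there were 3 with 75 tags and 2 with 41 tags. At chr12:125423616-125425005 there were 2 with 69 tags in replicate 1 and 3 with 59 tags in replicate 2. None of these was among the 10 strongest members by fold, with values of 30.2 and 23.5, 12.9 and 13.8, and 19.1 and 14.96 in replicates 1 and 2.

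The widest broad peaks differed from the typical ones. The member chr1:564347-570417 was by far the widest, at 6071 bp in replicate 1 and 6083 bp in replicate 2, and it had the highest fold, 74.6 and 105.4. Nevertheless, it contained a single BED peak in each library, with 67 tags in both, and its summits lay 1132 bp apart. The next was chr17:57919395-57922163, at 2769 and 2576 bp with folds of 14.98 and 13.5, followed by chr11:10529316-10531900, at 2585 and 2171 bp with folds of 60.4 and 63.7. The member chr5:134262013-134264146 measured 2134 and 2178 bp and had folds of 46.4 and 47.5. None of these 3 contained a BED peak in either library. Thus the 4 members above 2000 bp in both libraries had at most 1 BED peak each. The nuclear genome holds copies of mitochondrial DNA, to which mitochondrial reads can align, and both lists also held a peak over the whole of chromosome M. Whether chr1:564347-570417, chr11:10529316-10531900 and the members on chromosome 5 near chr5:134262013-134264146 lie in such copies was not tested, so their widths and folds cannot be taken as binding of the fusion protein. Among the next widest, chr20:49377638-49379672 measured 2035 and 1958 bp and held 2 BED peaks with 100 tags in replicate 1 and 1 with 39 tags in replicate 2. The member chr2:161125765-161127439 measured 1675 and 1731 bp and held 2 in each, with 64 and 56 tags.

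**Figure D3:**
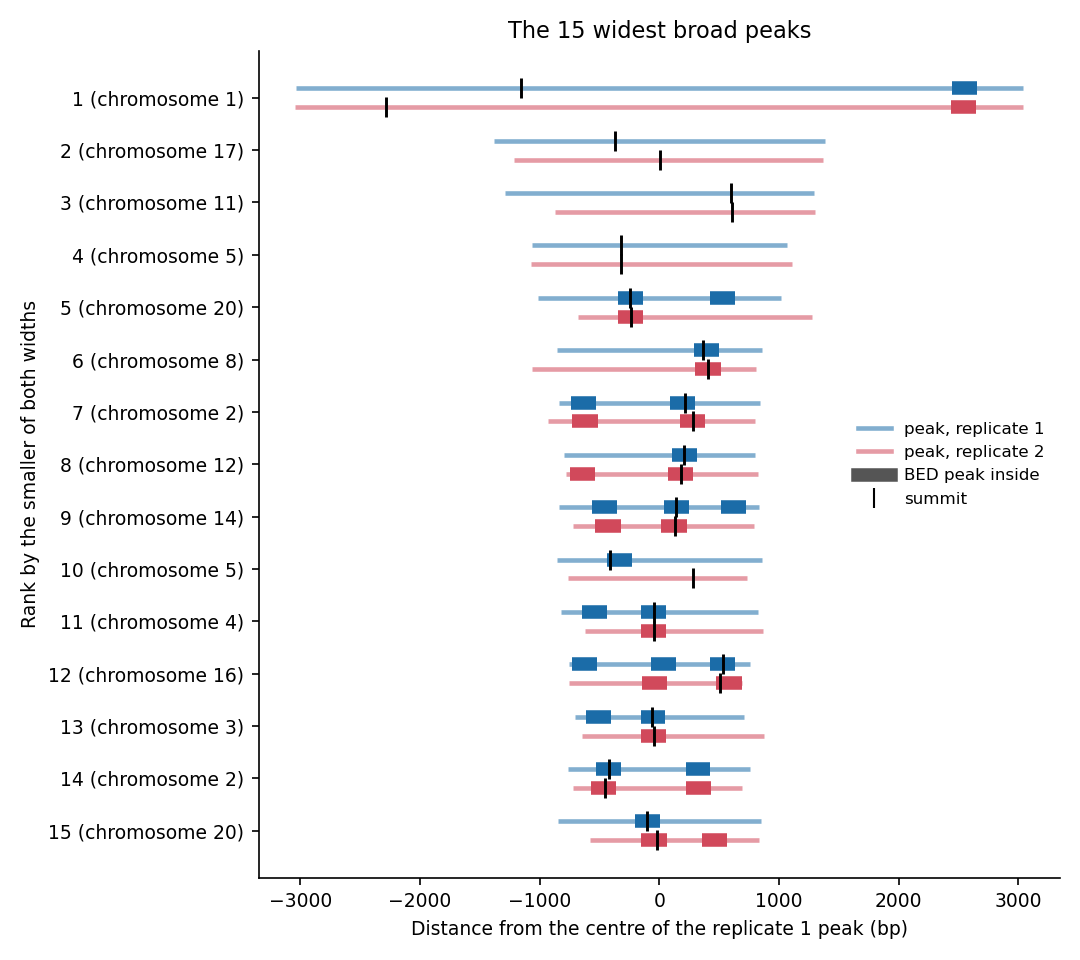
The 15 widest broad peaks, ordered by the smaller of both widths, with distance in bp from the centre of the replicate 1 peak on the horizontal axis; thin lines show the peak in replicate 1 (blue) and replicate 2 (red), thick segments the BED peaks inside it and black ticks the summits. The peaks ranked 2 to 4 hold no BED peak, and those ranked 1 and 10 have summits 1132 and 696 bp apart.

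The absence of BED peaks was not limited to weak members. In all, 15 members held none in either library and 7 held them in only one, while 263 held them in both. The 15, listed after their values were seen, had median folds of 14.98 and 14.6, and 5 of them in replicate 1 and 7 in replicate 2 exceeded the median of all members. Besides those already named, chr5:79946260-79947708 had folds of 30.8 and 38.4, and chr5:134260795-134261812 had folds of 31.0 and 24.4. Whether any of these strong members lies in a copy of mitochondrial DNA was not tested, so their folds cannot be taken as binding of the fusion protein. At the other end were the 2 members that overlapped an input DNA peak. The member chr1:121484394-121485448 had folds of 1.85 and 3.02 over an input peak of 187.6 tags per 10000000, and chr21:9825445-9826608 had folds of 3.36 and 3.67 over an input peak of 54.9 tags per 10000000. Why the BED lists held no peak at the strong members was not tested. Among the narrower peaks, 13.4% in replicate 1 and 20.0% in replicate 2 contained no BED peak, and these had low median folds, at 5.35 and 5.13.

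The tags of the BED peaks inside each member were then summed. Where a BED peak was present, the median was 56 tags in replicate 1 (267 members, 10 to 184 tags) and 38 tags in replicate 2 (267 peaks, 7 to 96 tags). The narrower peaks had medians of 21 and 14 tags, a ratio of 2.67 and 2.71. The ratio was smaller for the highest BED peak alone, with medians of 46 and 31 tags compared with 21 and 14 tags, or 2.19 and 2.21 times as many. Divided by peak width, the medians were 46.7 and 30.9 tags per kb in the broad peaks and 61.1 and 44.4 tags per kb in the narrower peaks. The fixed windows leave out more of a broad peak and the width chose the members, so this order is set by construction and does not compare signal density. With the members without a BED peak included, the medians were 54 and 36 tags. In total, the broad peaks contained 15544 and 10627 tags, or 0.855% and 1.03% of the tags of all BED peaks, from 0.261% and 0.352% of all narrowPeak peaks.

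Of the 10 members with the most tags, after scaling each library to its total, 5 lay on chromosome 19. That chromosome held 28 of all members (9.82%) and 4.29% of the narrower peaks. The member chr19:54693047-54695485 held 184 tags in replicate 1 and 68 in replicate 2, but its width was 2439 bp in the first library and 1013 bp in the second. At chr19:56164896-56166227 there were 140 and 93 tags, at chr2:55277403-55278923 there were 141 and 90, at chr19:59084009-59085107 there were 134 and 94, and at chr19:47802389-47803774 there were 125 and 96. These last 4 had 2 BED peaks in each library. Tags of this order also occurred at narrower peaks, which reached 245 tags in replicate 1 and 201 in replicate 2.

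The summed tags of the 263 members with BED peaks in both libraries were compared between replicates. Spearman's rho was 0.745, compared with 0.781 over 53310 narrower peaks. Among the 209 members with the same number of BED peaks in both libraries it was 0.898. Per library tag, the log2 ratio of replicate 2 to replicate 1 had a median of 0.18 and ranged from -1.41 to 1.98. It ranged from -0.72 to 0.85 with equal numbers of BED peaks, and from -1.41 to 1.98 over the 54 members with unequal numbers. The sums run over the same BED peaks that define this split, so the closer agreement with equal numbers follows in part from it. Replicate 2 contributed 40.5% of the tags in the broad peaks (39.9% to 41.1%), compared with 39.8% in the narrower peaks and 37.7% of both libraries.

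**Figure D4:**
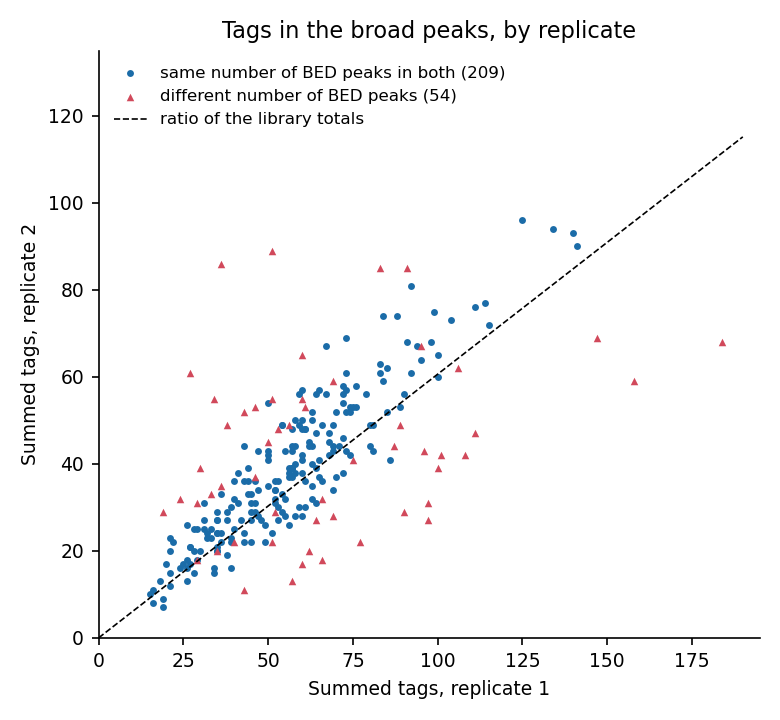
Summed tags of the BED peaks inside each broad peak in replicate 1 (horizontal axis) and replicate 2 (vertical axis), for the 263 broad peaks with BED peaks in both. Blue circles (209) have the same number of BED peaks in both libraries and lie near but mostly above the dashed line, the ratio of the library totals (0.606). Their median log2 ratio of replicate 2 to replicate 1 per library tag was 0.186. Red triangles (54) have different numbers and scatter more widely.

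Among the members with at least 100 tags in all, the 3 highest and the 3 lowest ratios were examined. At chr16:56640462-56641565 there was 1 BED peak with 36 tags in replicate 1 and 2 with 86 tags in replicate 2, a log2 ratio of 1.98. At chr19:54974728-54975803 there was 1 with 51 tags and 3 with 89 tags, a log2 ratio of 1.53. In the opposite direction, chr10:95195599-95197431 had 2 with 97 tags and 1 with 27 tags, a log2 ratio of -1.12, and chr2:234890454-234892048 had 3 with 97 tags and 1 with 31 tags, a log2 ratio of -0.92. At chr12:1583208-1584454 there was 1 with 60 tags and 2 with 65 tags, a log2 ratio of 0.84, and at chr6:32145092-32146371 there were 2 with 90 tags and 1 with 29 tags, a log2 ratio of -0.91. In 5 of these 6 members the library with more BED peaks also had the wider peak, the exception being chr12:1583208-1584454, at 1247 bp in replicate 1 and 1180 bp in replicate 2. The member chr16:56640462-56641565 measured 1104 bp in replicate 1 and 2092 bp in replicate 2, whereas chr10:95195599-95197431 measured 1833 and 1118 bp.

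The summit was less often central in broad peaks. It lay in the central 50% of the width in 71.2% of members in replicate 1 and 69.9% in replicate 2, compared with 94.2% and 93.1% of the narrower peaks. Between replicates the median distance of the summits was 36 bp, close to the 31 bp of narrower peaks. However, only 78.2% of the members had summits within 100 bp (73.1% to 82.6%), compared with 91.4%, and 41 members (14.4%) had summits over 208 bp apart, compared with 2.95%. A wide peak leaves more room for distant summits, and the part of width in the position of the summits was not tested.

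Input DNA tags were sparse, at fewer than 1 per BED peak in the broad and in the narrower peaks. The BED peaks inside the members held 0.641 input tags each in the replicate 1 list (exact Poisson interval, 0.561 to 0.730; 229 tags over 357 peaks) and 0.717 in the replicate 2 list (0.631 to 0.811; 253 tags over 353 peaks). The narrower peaks held 0.772 (0.765 to 0.779) and 0.810 (0.803 to 0.818). The interval of the members lay below that of the narrower peaks in replicate 1 and overlapped it in replicate 2. Peaks without a BED peak are left out of these rates, among them the members that overlapped an input peak. These intervals and the Wilson intervals cover counting error only. The peak callers used this input library, so it is not an independent measure.

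Because the members were stronger than the other peaks, they were also set beside narrower peaks from the same range of fold. Between the quartiles of the members in replicate 1, folds of 16.1 to 29.4, there were 145 members and 12013 narrower peaks, with median widths of 1175 and 481 bp. Fold was not equalised within this range. Of 7125 shared peaks with folds from 16.05 to 20.3, 42 were members, compared with 172 of 7125 above that. The members may therefore still be stronger within the range. The highest BED peak had a median of 46.5 tags in the members and 40 in the narrower peaks, and the summed tags were 54 and 40. At least 2 BED peaks were present in 33.1% of the members and 0.658% of the narrower peaks. The shared range of fold leaves the widths apart, and a narrow peak has little room for a further BED peak. The input tags per BED peak were 0.599 (0.495 to 0.719) and 0.4998 (0.487 to 0.513), with overlapping intervals. The fold is itself taken against the input library, so selecting on it also selects on the input.

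By chromosome, the broad peaks were unevenly placed. They occurred on 22 of 23 chromosomes, with 41 on chromosome 1, 31 on chromosome 17, 28 on chromosome 19 and 26 on chromosome 2. Chromosomes 1 and 2 held 14.4% and 9.12% of the members, compared with 10.7% and 8.44% of the narrower peaks. Chromosomes 17 and 19 together held 59 members, or 20.7% (16.4% to 25.8%), compared with 9.49% of the narrower peaks. Within the fold range used above, the shares were 22.8% (16.7% to 30.2%) and 11.9% (11.3% to 12.5%). These chromosomes had the most broad peaks relative to the shared peaks, and the intervals take no account of such a choice. Per Mb of the stretch between the first and last peak of a chromosome, there were 0.474 members on chromosome 19 (exact Poisson interval, 0.315 to 0.686) and 0.382 on chromosome 17 (0.259 to 0.542), compared with 0.0967 over all chromosomes. Relative to the shared peaks, chromosome 19 had 9.23 broad peaks per 1000 (6.14 to 13.3) and chromosome 17 had 8.45 (5.74 to 12), whereas all chromosomes had 4.06. Chromosome 1 had 5.43 (3.89 to 7.36) and chromosome 2 had 4.38 (2.86 to 6.42), so both intervals included the value over all chromosomes. Chromosome 18 had none, and chromosomes 13 and 15 had 1 each.

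**Figure D5:**
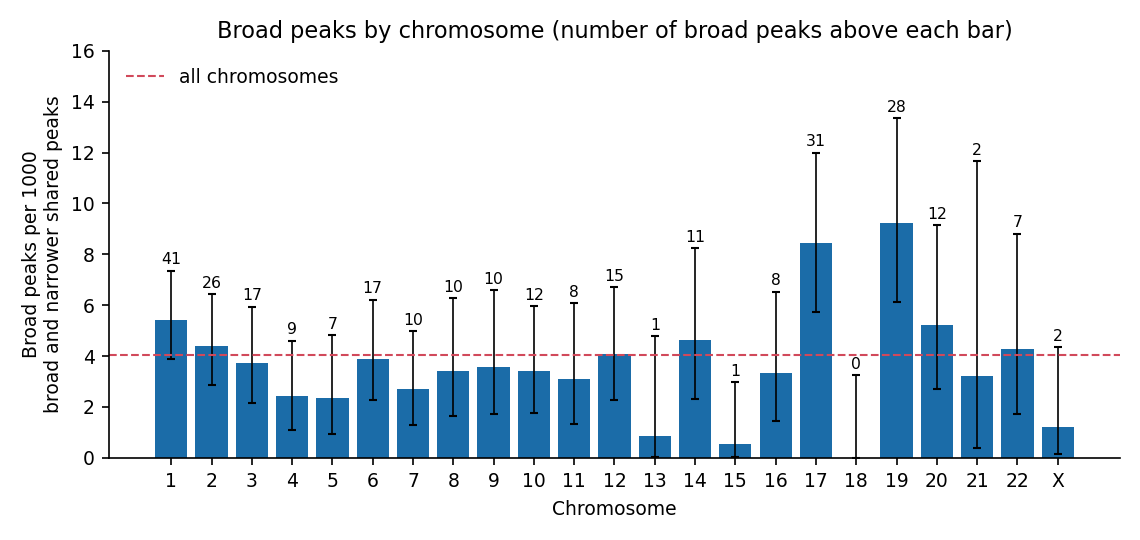
Number of broad peaks per 1000 broad and narrower shared peaks on each chromosome (bars, axis from 0) with exact Poisson 95% intervals for counting error, and the number of broad peaks above each interval. The dashed line is the value over all chromosomes (4.06), and the intervals of chromosomes 17 and 19 lie above it while those of chromosomes 15 and 18 lie below it.

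The broad peaks also lay among more neighbours. They had a mean of 3.05 other replicate 1 peaks within 10 kb, compared with 2.13 for the narrower peaks. In the fold range used above, the means were 3.02 and 2.40. No other peak lay within 10 kb of 9.47% of the members (6.59% to 13.4%), compared with 22.3% of the narrower peaks. The nearest peak was within 1000 bp for 46.0% of the members (40.3% to 51.8%) and 33.7% of the narrower ones, with median gaps of 1295 and 2565 bp. A wide peak reaches closer to its neighbours by its width alone, and the share of this in the gaps was not tested.

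Some members lay close to one another. Of the 285 members, 28 formed 13 runs within 50 kb. No such count was made for the narrower peaks, so the number gives no measure of clustering. Ordered by their number of members and then by length, the first runs were chr19:47730311-47803774, with 3 members over 73464 bp, chr5:134259336-134264146, with 3 members over 4811 bp, and chr17:8041774-8091413, with 2 members over 49640 bp. The run on chromosome 5 included the member of 2134 bp without a BED peak described above. Its first member, chr5:134259336-134260521, had folds of 47.9 and 50.5 and 1 BED peak in each library, with 44 and 39 tags. Whether this run lies in a copy of mitochondrial DNA was not tested, so it cannot be taken as a cluster of binding sites.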

How the data were processed

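HA-PRCC-TFE3 ChIP-seq peak lists of 2 replicates and an input DNA list were used, each called by the authors per sample, without pooling. The methods name MACS in Strand NGS with input DNA as comparison. The aligner and duplicate handling are not given in the sources used here. The build is hg19 per the submitters' processing notes. On 15 of 24 chromosomes, peaks ended past the hg38 end, so the hg38 reference was not used and no coordinates were converted.

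The deposited narrowPeak lists gave a fold ratio at the summit, −log10 p and q values and a score. The deposited BED lists were read by column position, since their header was displaced. For each peak the authors gave the count of its tags and a score, the signal scaled to 10000000 tags, fold ratios over input and local background, p-values, and a fraction that was not used. A BED peak was assigned to a narrowPeak peak that it overlapped by 1 bp. Library totals were tag counts over scaled signal. Input tags per BED peak were recovered from the fold over input, and 100% came out whole in both lists.

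Members named were the 15 widest, the 10 with most tags, those nearest the limit, those with most BED peaks, those with extreme ratios, the longest runs and those over input peaks, and examples of each are given. Members without a BED peak were added after their values were seen. The members and lists were chosen with earlier results of these data known. In the scripts (Python 3.11.15, pandas 2.3.3, scipy 1.17.1), only the overlaps, the member rule, the BED peak counts and the tag sums were tested on simulated data. Alternatives were the width limit, the overlap, the q-value, BED assignment, regions over input peaks and each replicate left out.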

Additional observations from a re-analysis of the deposited data

Results flagged for a closer look

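A signal lay outside chromosomes 1 to 22 and X. Both narrowPeak lists held a single peak that spanned chromosome M, the mitochondrial genome, from 1 to 16571. Its fold enrichment was 47.0 in replicate 1 and 77.0 in replicate 2. The input DNA list held 1 peak there, of 306 bp and 13.8 tags per 10000000. At 16571 bp this peak was wider than any broad peak, and the rule left it out by its chromosome. The nuclear genome holds copies of mitochondrial DNA, and whether broad peaks such as chr1:564347-570417, chr11:10529316-10531900 and chr5:134262013-134264146 lie in such copies was not tested.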

How the results depend on the processing

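A total of 53 values were computed under alternatives, of which 31 remained within the limit of their result and 22 moved. The limit was a factor of 1.5 for the number of broad peaks and the standard deviation between replicates for the rest. At 1500 bp or more there were 9 broad peaks, with a median width of 2035 bp, 64 and 39 summed tags in replicates 1 and 2, 0.0268% and 0.0298% of BED-peak tags, and 0.606 times the tags per kb of narrower peaks. At 800 bp or more there were 1040, with a median width of 981.5 bp, 46 and 32 summed tags, and 2.77% and 3.38% of BED-peak tags. When either replicate was left out, so that the condition on the other fell away, the number ranged from 479 to 958 and the median width from 1122 to 1133 bp. Without replicate 2 the median was 48 summed tags and the share 2.67% in replicate 1, and without replicate 1 the share was 1.69% in replicate 2. Input tags per kb in broad over narrower peaks ranged from 0.756 to 0.918 over the lists, against 0.857 with both. With reciprocal overlap of 50% there were 281 members, and with q of 1e-05 or less there were 284. The median number of BED peaks per member was 1 in all 7 of its alternatives, but with most members at 1 this median could hardly move. Over all replicate 1 peaks, the share with at least 2 was 28.9% from 1000 to under 1500 bp and 48.7% at 1500 bp or more. Leaving out the members without a BED peak was added after the data were seen, and it gave a median width of 1185 bp.

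No paired analysis was possible because there was a single ChIP group and no test. Alternatives on distance to start sites and on E-box motifs were not run, since no hg19 annotation or genome was used here. At 7418533 tags in replicate 2, a peak that was narrower or without BED peaks there cannot be taken as lacking signal over the rest of its width.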
